A study of Caenorhabditis elegans with 4 samples.

Results

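Caenorhabditis elegans larvae shed and rebuild their cuticle at the end of each larval stage, and a small set of transcription regulators runs that cycle. The transcripts of 8 of these regulators were followed here, nhr-23, nhr-25, blmp-1, lin-42, bed-3, grh-1, myrf-1 and nhr-85. They were chosen by role and found by their sequence names (C01H6.5, F11C1.6, F25D7.3, F47F6.1, F25H8.6, Y48G8AR.1, F59B10.1 and W05B5.3, in that order) in both deposited tables of gene expression. They are 8 of the 17491 genes listed in either table, 16623 of which are in both.

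In each larval stage many transcripts rise and fall in step with the moult, many of them in the hypodermis, the epidermal layer that secretes the cuticle. NHR-23 and NHR-25 are nuclear hormone receptors related to insect receptors of the ecdysone cascade, LIN-42 is related to the Period protein of circadian clocks, and the other factors also act in moulting, cuticle formation or larval timing. Many of the regulators are themselves transcribed in pulses, so that a level depends on where in its larval stage an animal was when it was collected.

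RNA was sequenced from L2/L3 larvae that were starved as L1 larvae, grown for 24 h at 22 °C and then exposed to auxin (indole-3-acetic acid, 1 mM) for 2 h. Auxin causes a degron-tagged protein to be destroyed in animals that make the plant protein TIR1. Strain AM11 carries the alleles top-2::degron::GFP and dpy-27::degron::GFP, so that it loses TOP-2, the type II topoisomerase that passes a DNA duplex through a break in another. Strain AM12 carries top-1::degron::GFP together with the same dpy-27 allele and loses TOP-1, the type I topoisomerase that relaxes supercoiled DNA. Both also lose DPY-27, the part of condensin DC that other condensins lack, and the groups are called TOP-2/DPY-27 depletion and TOP-1/DPY-27 depletion below. Condensin DC lowers expression of the X chromosomes of hermaphrodites. The control of both comparisons was strain CA1200 after 2 h on auxin, known as a strain that makes TIR1 from the eft-3 promoter and has no tag on these proteins. The labels used here do not name the promoter of TIR1 in AM11 and AM12. Each depletion group had 2 libraries, described as biological replicates with nothing more said of separate cultures. The control libraries are not among the labelled samples, so the sample labels give no larval stage, growth or replicate status for them. That there were 2 control libraries was inferred from the deposited values, as set out under the processing. The p-values therefore set the difference between groups against a spread estimated only from libraries within groups. No group lacked only DPY-27, so the loss of a topoisomerase and the loss of DPY-27 cannot be told apart in either comparison.

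The authors deposited, for each comparison, a mean normalized count per gene over its 4 libraries, a log2 fold change over control with its standard error (SE) and a p-value adjusted over all genes tested. Whole reads of each library were recovered from these numbers, as set out under the processing, and gave 7229738 to 11788972 reads per library in recovered genes. Normalized counts below are those reads divided by a size factor for depth. Libraries are called A and B, A being the deeper of its group, because which replicate number each carries is unknown. The transcripts of the tagged genes did not check the labels, since a degron removes protein, and they ran from 864 to 1348 normalized counts for top-2, 1462 to 1900 for top-1 and 766 to 1587 for dpy-27 over the 6 libraries.

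The control libraries stood apart from each other for genes of this kind. Of 4110 genes with a mean of 500 or more normalized counts, 33.5% had their highest value of all 6 libraries in control A, and among the 8 regulators 7 did. Between control A and control B the regulators differed by a median of 0.93 on the log2 scale, beside 0.38 for all genes of that level. The control libraries also held few reads of most markers of 2 other tissues. Markers of the pharynx, the feeding organ, summed to 874 and 1142 normalized counts in the control (9 of 10 recovered) and to 10855 to 24157 in the depletions. The pharynx marker pha-4 did not share this, at 702 and 534 in control A and B and 502 to 802 in the depletions. Of 12 germline markers the sum was 251 and 360 in the control and 2517 to 6361 in the depletions. ceh-22 (pharynx) was at 0 in control B, him-3 (germline) at 0 in control A and nos-2 (germline) at 0 in both. Whether these differences have a part in the results below was not tested, and in RNA from whole larvae fewer cells of a type and less RNA per cell cannot be told apart.

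After TOP-1/DPY-27 depletion, 6 of the 8 regulators fell below the control in the authors' deposited table, where an adjusted p under 0.05 counts as a call: bed-3, lin-42, blmp-1, nhr-85, grh-1 and nhr-23. Of all 14854 genes tested in that comparison 29.9% were called and 12.8% were called lower, as were 18.3% of those with a mean of at least 500. After TOP-2/DPY-27 depletion blmp-1 fell, 1 of 8, in the authors' deposited table, where 21.5% of 14958 genes were called and 7.47% were called lower, as were 11% of those with a mean of at least 500. All 8 log2 fold changes lay below 0 in both comparisons, as did 50.1% and 49.7% of all genes tested after TOP-2 and TOP-1 depletion. Their median was -0.80 after TOP-2/DPY-27 depletion and -1.53 after TOP-1/DPY-27 depletion, where the medians of all genes tested were -0.00 and 0.01. Both comparisons use the same control libraries, so a high control value lowers a gene in both.

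**Figure D1:**
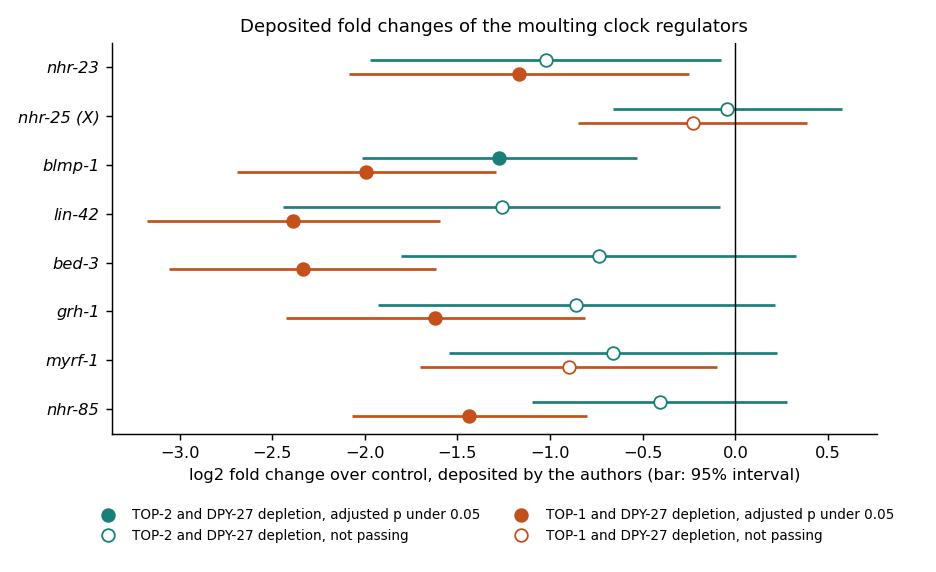
Log2 fold change over control of each regulator in the authors' deposited tables, with bars for the 95% interval, filled where the adjusted p was under 0.05. All 8 points of each comparison lie left of 0, with 1 filled for TOP-2 and DPY-27 and 6 for TOP-1 and DPY-27, and nhr-25, the regulator on the X, lies nearest to 0 in both.

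nhr-23, on chromosome I, encodes the receptor related to vertebrate RORs and insect HR3 that larvae need to moult. Its normalized counts were 2051 and 793 in control libraries A and B, 676 and 692 after TOP-2/DPY-27 depletion, and 434 and 833 after TOP-1/DPY-27 depletion. Control A was the highest library, and TOP-1 depletion library B lay above control B, so the groups of the second comparison overlapped. The authors' deposited table gave a fall of 2.25-fold after TOP-1/DPY-27 depletion, at -1.17 ± 0.47 (log2 fold change ± SE, adjusted p 0.0431). After TOP-2/DPY-27 depletion the value in the authors' deposited table, -1.02 ± 0.48, did not pass (adjusted p 0.121), although both of its libraries lay below both controls. The call after TOP-1/DPY-27 depletion was lost when the recovered reads of all 6 libraries were tested with limma-voom (-1.08, adjusted p 0.125), and without control A the value there was -0.40.

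nhr-85, also on chromosome I, encodes a receptor related to vertebrate Rev-Erbs and insect E75, which acts with NHR-23 on the transcription of the timing microRNA lin-4. Its counts were 914 and 1006 in the control, 589 and 831 after TOP-2/DPY-27 depletion, and 375 and 331 after TOP-1/DPY-27 depletion. The 3 groups did not overlap, and the libraries of the control differed by only 1.1-fold. It fell by 2.71-fold after TOP-1/DPY-27 depletion in the authors' deposited table (-1.44 ± 0.32, adjusted p 8.63e-05). The value after TOP-2/DPY-27 depletion in the authors' deposited table was -0.41 ± 0.35 (adjusted p 0.457). An exon of nhr-85 shares bases with npr-14 on the opposite strand, which had 5.87 to 18.8 normalized counts in any library. Whether reads were counted by strand is not stated in the sources used here.

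nhr-25 encodes the receptor related to insect Ftz-F1, which acts in moulting and in epidermal cells, and is the 1 regulator of the 8 on the X. Its counts were 1847 and 1508 in the control, 1648 and 1541 after TOP-2/DPY-27 depletion, and 1515 and 1335 after TOP-1/DPY-27 depletion, and the groups of each comparison overlapped. The authors' deposited tables gave -0.04 ± 0.32 (95% interval -0.66 to 0.57, adjusted p 0.944) and -0.23 ± 0.32 (-0.85 to 0.39, adjusted p 0.636). Genes on the X as a whole lay higher after both depletions, at a median log2 fold change of 0.54 and 0.68, with autosomal medians of -0.13 and -0.14. Against the X median nhr-25 stood at -0.59 after TOP-2/DPY-27 depletion and at -0.91 after TOP-1/DPY-27 depletion. With fold changes centred on the median of each gene's own class, X or autosomes, the latter passed (adjusted p 0.0182) and the former did not (adjusted p 0.201).

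blmp-1, on chromosome I, encodes a zinc finger protein related to vertebrate BLIMP1 that keeps oscillating genes open to transcription. The control libraries held 3852 and 2354 normalized counts, those of the TOP-2/DPY-27 depletion 1123 and 1388, and those of the TOP-1/DPY-27 depletion 690 and 867. All 4 depletion libraries lay below both controls, and both TOP-1 depletion libraries below both TOP-2 depletion libraries. It fell by 2.42-fold after TOP-2/DPY-27 depletion (-1.28 ± 0.38, adjusted p 0.00565) and by 3.98-fold after TOP-1/DPY-27 depletion (-1.99 ± 0.36, adjusted p 3.85e-07) in the authors' deposited tables. limma-voom also called both (-1.27, adjusted p 0.0225, and -1.96, adjusted p 0.00468). With a library left out, the value after TOP-2/DPY-27 depletion ran from -1.62 (without control B) to -0.91 (without control A). Without TOP-2 depletion library A it was -1.11.

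lin-42, on chromosome II, has the highest level of the 8, and its protein limits the transcription of timing microRNAs. Its counts were 15406 and 6923 in the control, 2057 and 7064 after TOP-2/DPY-27 depletion, and 1845 and 2427 after TOP-1/DPY-27 depletion. The TOP-2 depletion libraries were 3.43-fold apart, 1 near the TOP-1 depletion libraries and the other above control B. In the authors' deposited table it fell by 5.22-fold after TOP-1/DPY-27 depletion (-2.39 ± 0.40, adjusted p 6.72e-08). The value after TOP-2/DPY-27 depletion in the authors' deposited table was -1.26 ± 0.60 (adjusted p 0.126), with an SE larger than that of 96.1% of genes with a mean of at least 500. Without TOP-2 depletion library B limma-voom gave -2.33 for that comparison, and without library A -0.55. After TOP-1/DPY-27 depletion it gave -2.28 with all 6 libraries and -1.71 without control A. Without TOP-1 depletion library A it gave -2.09 there, and without library B -2.48.

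bed-3, on chromosome IV, encodes a BED zinc finger protein needed for moulting and for cell divisions of the vulva. The normalized counts were 1721 and 1242 in the control, 414 and 1329 after TOP-2/DPY-27 depletion, and 356 and 228 after TOP-1/DPY-27 depletion. As for lin-42, the TOP-2 depletion libraries lay apart, here by 3.21-fold, and overlapped the control, while both TOP-1 depletion libraries were below every other library. The fall of 5.05-fold after TOP-1/DPY-27 depletion in the authors' deposited table (-2.34 ± 0.37) had the lowest adjusted p of the 8 (5.37e-09), and that after TOP-2/DPY-27 depletion, -0.74 ± 0.54, did not pass (adjusted p 0.372). Without TOP-2 depletion library B the latter stood at -1.82 in limma-voom, and without library A at -0.13. The fall after TOP-1/DPY-27 depletion was also called by limma-voom (-2.35, adjusted p 0.0201), and ran from -2.67 to -2.03 with a library left out. bed-3 shares exon bases with dur-1 on the opposite strand, which had 4456 to 6097 normalized counts per library and log2 fold changes of -0.09 (adjusted p 0.873) and 0.17 (adjusted p 0.722) in the authors' deposited tables.

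grh-1, on chromosome I, encodes the Grainyhead factor of the epidermis, needed for an intact cuticle. Control libraries A and B held 1907 and 840 normalized counts, the TOP-2 depletion libraries 433 and 1050, and the TOP-1 depletion libraries 447 and 446. The TOP-2 depletion groups overlapped the control, and the TOP-1 depletion libraries were nearly equal and below both controls. It fell by 3.07-fold after TOP-1/DPY-27 depletion in the authors' deposited table (-1.62 ± 0.41, adjusted p 0.000638), and stood at -0.86 ± 0.55 (adjusted p 0.284) after TOP-2/DPY-27 depletion in the authors' deposited table. In limma-voom the former was -1.49 and missed the threshold (adjusted p 0.0592). With a library left out it ran from -2.09 (without control B) to -0.91 (without control A).

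myrf-1, on chromosome II, encodes a membrane-bound factor whose cleaved part enters the nucleus, and it is needed for larvae to go through their moults. Its counts were 6750 and 2934 in the control, 2742 and 3256 after TOP-2/DPY-27 depletion, and 2294 and 2893 after TOP-1/DPY-27 depletion. All 4 depletion libraries lay far below control A and near control B. The values in the authors' deposited tables, -0.66 ± 0.45 (adjusted p 0.329) and -0.90 ± 0.41 (adjusted p 0.0808), did not pass. Without control A they were 0.027 and -0.19 in limma-voom, and without control B -1.18 and -1.39, so that here the size of the fall depended on which control library was kept.

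**Figure D2:**
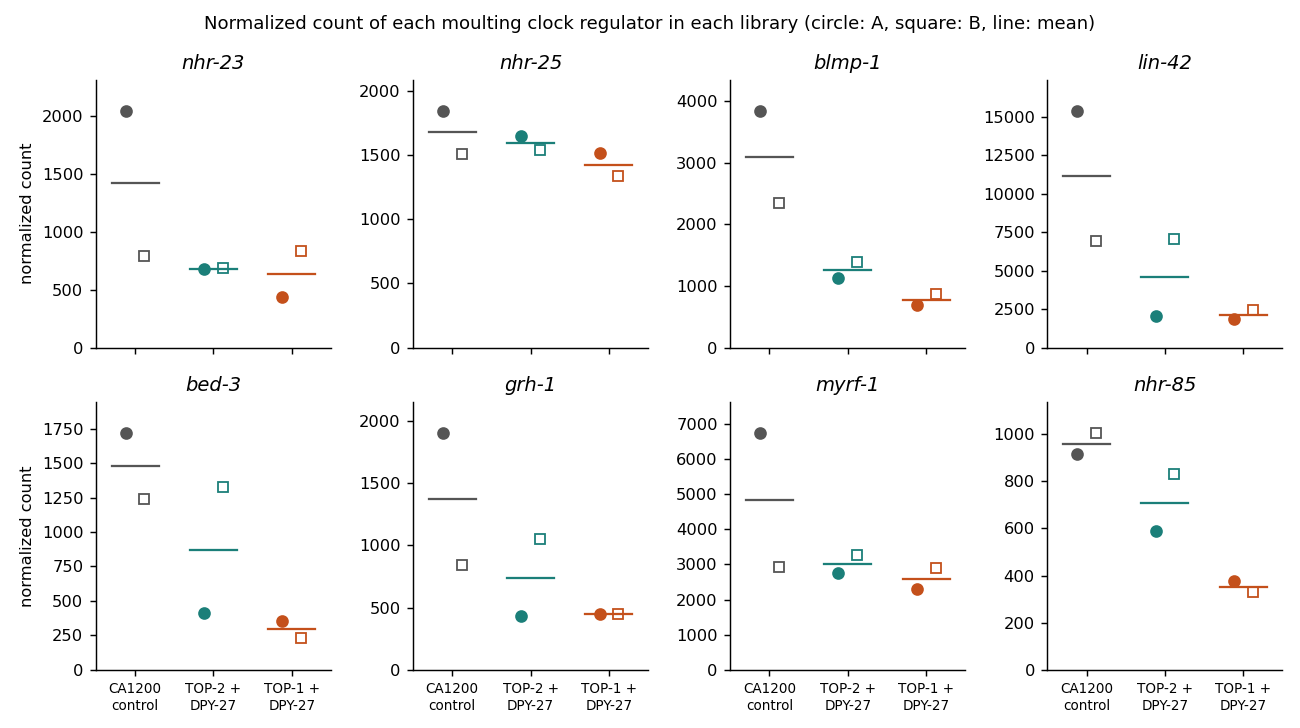
Normalized count of each regulator (y axis, from 0) in the libraries of the control, the TOP-2/DPY-27 depletion and the TOP-1/DPY-27 depletion, with library A as a circle, library B as a square and the group mean as a line. Control A is the highest point for 7 of 8 genes, and the TOP-2 depletion libraries are far apart for lin-42, bed-3 and grh-1.

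Set per kilobase of exon, which allows levels of different genes to be compared, mean normalized counts in the control ran from 2785 for lin-42 through 1325 for myrf-1, 903 for blmp-1, 658 for bed-3, 652 for nhr-25, 563 for nhr-23 and 452 for grh-1 to 382 for nhr-85. Within each control library lin-42 stood above myrf-1, myrf-1 above blmp-1 and blmp-1 above bed-3. These were 3843, 1847, 1120 and 764 in A, and 1727, 803, 685 and 551 in B. nhr-23 also stood above grh-1 in both. The order of bed-3 and nhr-25, of nhr-25 and nhr-23, and of grh-1 and nhr-85 differed between A and B. After TOP-1/DPY-27 depletion myrf-1 stood first at 710 per kilobase, before nhr-25 at 554 and lin-42 at 533, and bed-3 last at 130. Within each library of that depletion myrf-1 lay above nhr-25, and lin-42 above nhr-23 (mean 251 per kilobase). The order of nhr-25 and lin-42 differed between its libraries, as did that of bed-3, nhr-85 and grh-1. After TOP-2/DPY-27 depletion the means ran from 1138 for lin-42 to 244 for grh-1. These levels use the exons of Ensembl release 115 and treat all isoforms of a gene together.

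Several regulators differed widely between the libraries of the control or of the TOP-2/DPY-27 depletion. In the control the gap between libraries was over 1 on the log2 scale for nhr-23 (1.37), myrf-1 (1.2), grh-1 (1.18) and lin-42 (1.15), 4 of 8, where 9.59% of genes with a mean of at least 500 had such a gap. In the TOP-2/DPY-27 depletion it was over 1 for lin-42 (-1.78, lower in library A), bed-3 (-1.68) and grh-1 (-1.28), 3 of 8, beside 6.86% of those genes. The 5 other regulators there were within 0.50 of each other. In the TOP-1/DPY-27 depletion no regulator had a gap over 1, where 3.21% of genes did, and the widest was that of nhr-23 (-0.94). nhr-25 was within 0.29 in every group.

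**Figure D3:**
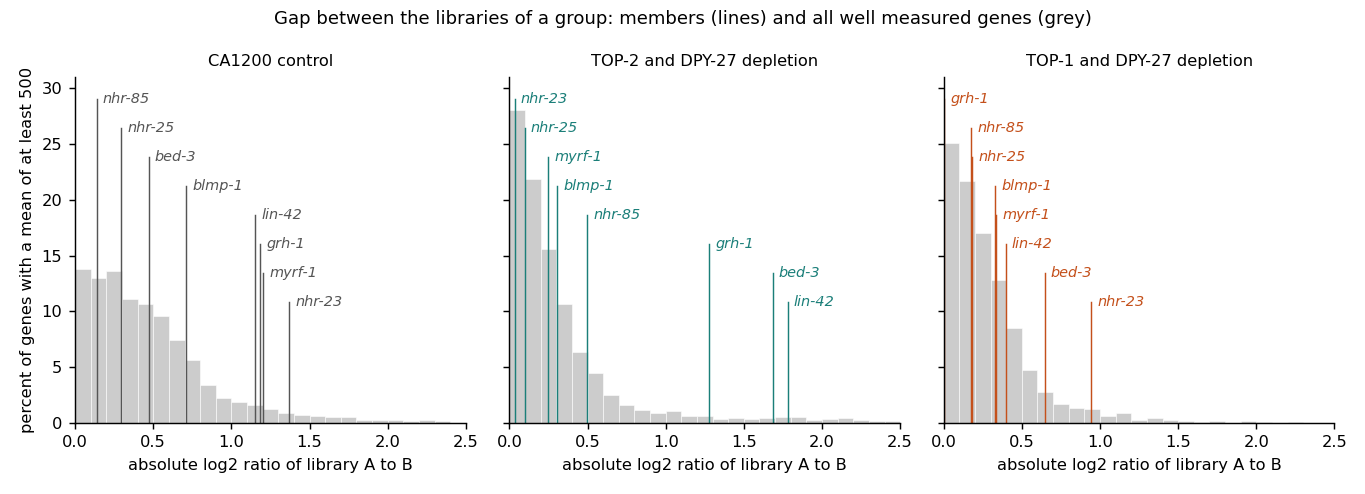
Absolute log2 ratio of library A to library B (x axis) in each group, as grey bars for the percent of the 4110 genes with a mean of at least 500 (y axis) and as lines for the regulators, whose heights only separate the names. Of the 8, 4 lie past 1 in the control, 3 in the TOP-2/DPY-27 depletion and none in the TOP-1/DPY-27 depletion.

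By position of the libraries, 3 of 8 regulators (nhr-23, blmp-1 and nhr-85) had both TOP-2 depletion libraries below both controls, where 39% of genes with a mean of at least 500 did. After TOP-1/DPY-27 depletion 6 of 8 did, all but nhr-23 and nhr-25 and so with myrf-1 in the place of nhr-23 among the genes called, where 41.9% of genes did.

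How far the log2 fold changes rest on single libraries was seen by refitting limma-voom without each of the 6 libraries in turn. After TOP-1/DPY-27 depletion they ran from -2.32 to -1.61 for blmp-1, -1.53 to -1.36 for nhr-85 and -2.86 to -1.71 for lin-42. The range was -2.67 to -2.03 for bed-3, -2.09 to -0.91 for grh-1 and -1.78 to -0.40 for nhr-23. For myrf-1 it was -1.39 to -0.19 and for nhr-25 -0.38 to -0.09. Without control A the median of the 8 was -1.21. With all 6 libraries limma-voom called 4 of 8 lower after TOP-1/DPY-27 depletion (blmp-1, lin-42, bed-3 and nhr-85), where it called 15.6% of 13099 genes lower. It called 1 of 8 after TOP-2/DPY-27 depletion, where it called 9.84%. A fit that leaves a group with 1 library assumes that this library varies like those of the other groups. It also has fewer libraries to test with, so a call can be lost without a smaller fall. Calls of these fits are listed only under the dependence on the processing, and are not read as a measure of the falls.

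**Figure D4:**
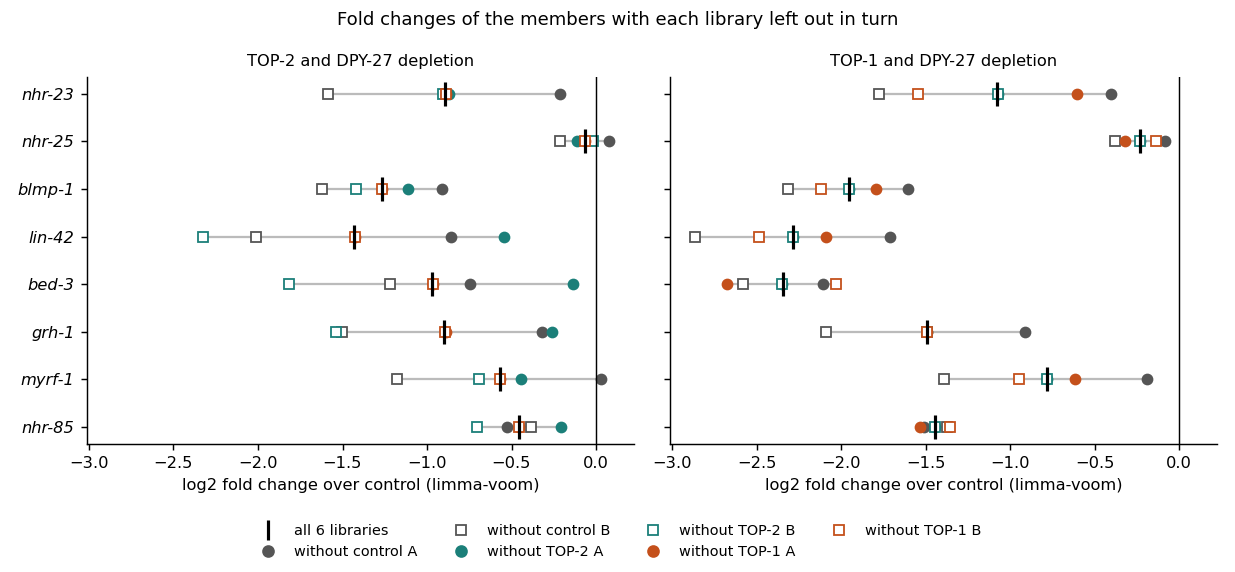
Log2 fold change over control (x axis) of each regulator from limma-voom, with all 6 libraries (black bar) and with each library left out (points). Leaving out control A moves nhr-23, lin-42, grh-1 and myrf-1 toward 0 in both comparisons, and blmp-1 and bed-3 by less. Leaving out TOP-2 depletion library A moves lin-42, bed-3 and grh-1 toward 0 in the first comparison, and nhr-85 after TOP-1/DPY-27 depletion stays near -1.5.

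The depletions were then set against each other by the difference of the deposited log2 fold changes, TOP-2 minus TOP-1, in which the common control cancels. The difference was above 0 for all 8, that is lower after TOP-1/DPY-27 depletion, at a median of 0.74. The median of all 14646 genes was 0.02, and the 8 signs come from the same libraries and are not independent. None of the 8 passed after adjustment over these genes by Benjamini-Hochberg, where 15 genes (0.102%) did. For bed-3 it was 1.6 ± 0.66 (SE, 95% interval 0.31 to 2.89, p 0.0151, adjusted p 0.865 by the Wald test), and for nhr-85 1.03 ± 0.48 (0.09 to 1.96, p 0.0312). These are 2 of 8 at an unadjusted p under 0.05, where 2.79% of all genes were lower after TOP-1/DPY-27 depletion at that level. The others were lin-42 at 1.12 ± 0.72, grh-1 at 0.76 ± 0.68, blmp-1 at 0.72 ± 0.52, myrf-1 at 0.24 ± 0.61, nhr-25 at 0.19 ± 0.45 and nhr-23 at 0.14 ± 0.67. The interval for lin-42, -0.30 to 2.54, spans both no difference and one of over 2 on the log2 scale, so a miss of the threshold does not show that the depletions act alike on it.

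This SE takes the tables as independent and is too wide, because the common control enters both. With a share of 0.5 of each variance counted as the common control's and left out, bed-3 passed (adjusted p 0.0341) and nhr-85 did not (adjusted p 0.0786), a count of 1 of 8 where 338 of 14646 genes (2.31%) passed. limma-voom, which compares the depletion libraries directly, called 0 of 13099 genes at an adjusted p under 0.05 and 2234 at an unadjusted p under 0.05. Among the latter were nhr-85 (0.99 ± 0.23 SE, p 0.00386, adjusted p 0.132), bed-3 (1.37 ± 0.54, p 0.0409, adjusted p 0.270) and blmp-1 (0.69 ± 0.28, p 0.0446, adjusted p 0.278). Without TOP-2 depletion library B the limma-voom difference was -0.042 for lin-42, -0.044 for grh-1 and 0.53 for bed-3. Without TOP-1 depletion library A it was -0.28 for nhr-23. For nhr-25, blmp-1, bed-3, myrf-1 and nhr-85 it stayed above 0 whichever library was left out. The sign for lin-42, grh-1 and nhr-23 thus depended on single libraries. By position, both TOP-1 depletion libraries lay below both TOP-2 depletion libraries for 4 of 8 regulators, where 30.1% of genes with a mean of at least 500 had this order.

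Other genes of the moulting cycle were taken from lists chosen by role. Counts of calls in these lists and in the tissue markers below stand beside the shares of all genes tested. After TOP-2/DPY-27 depletion 7.47% of genes were called lower and 14.1% higher, and after TOP-1/DPY-27 depletion 12.8% and 17.1%. Of 4 further nuclear receptors that were tested, nhr-67, related to insect tailless, rose in both comparisons in the authors' deposited tables. It rose by 3.44 ± 0.67 on the log2 scale after TOP-2/DPY-27 depletion (adjusted p 5.36e-06) and by 2.81 ± 0.76 after TOP-1/DPY-27 depletion (adjusted p 0.00149). Its normalized counts were 5.49 and 7.56 in the control, 76.8 and 61.3 after TOP-2 and 44.8 and 45.8 after TOP-1 depletion. nhr-41, related to insect HR78, fell after TOP-1/DPY-27 depletion in the authors' deposited table (-1.70 ± 0.37, adjusted p 6.05e-05), where its libraries held 422 and 381 normalized counts beside 1674 and 935 in the control. It was at -0.86 ± 0.45 after TOP-2/DPY-27 depletion (adjusted p 0.172) in the authors' deposited table. nhr-6 (-0.45 and 0.09) and nhr-91 (-0.42 and -0.89) did not pass in either of the authors' deposited tables. The list had 0 lower and 1 higher after TOP-2/DPY-27 depletion (median -0.44), and 1 lower and 1 higher after TOP-1/DPY-27 depletion (median -0.40), where 14.1% and 17.1% of all genes tested were higher. In limma-voom its medians were -0.42 and -0.34 with all 6 libraries. Without control A they were -0.015 and 0.061, and without control B -0.81 and -0.74.

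Among 11 partners and other timing regulators, 1 fell and 1 rose after TOP-2/DPY-27 depletion (median 0.01), and 3 fell and 0 rose after TOP-1/DPY-27 depletion (median -0.18). mab-10, the cofactor of the larval-to-adult factor LIN-29, fell in both of the authors' deposited tables (-1.40 ± 0.50, adjusted p 0.0268, and -1.85 ± 0.45, adjusted p 0.000315). Its call after TOP-2/DPY-27 depletion was lost in limma-voom (adjusted p 0.0681) and with each gene centred on the median of its own class (adjusted p 0.0520). lin-29 itself (-1.44 ± 0.41, adjusted p 0.00251) and lin-46, which acts late in the same timing pathway (-2.52 ± 0.45, adjusted p 4.64e-07), fell after TOP-1/DPY-27 depletion in the authors' deposited table. lin-46 had 192 and 346 normalized counts in the control and 45.8 and 47 after TOP-1/DPY-27 depletion, so here control B was the higher. lin-14, an X-linked factor of early larval fates, rose after TOP-2/DPY-27 depletion in the authors' deposited table (1.03 ± 0.39, adjusted p 0.0374) and stood at 0.46 (adjusted p 0.395) after TOP-1/DPY-27 depletion. The rise was lost with the same centring, on the X median (0.49, adjusted p 0.442) and in limma-voom (1.03, adjusted p 0.0716). Of the 11 genes limma-voom called 0 after TOP-2/DPY-27 depletion and 3 lower after TOP-1/DPY-27 depletion, where it called 15.6% of all genes lower. Its median after TOP-1/DPY-27 depletion was -0.18. With a library left out that median ran from -0.29 (without control B) to -0.08 (without TOP-1 depletion library B). The casein kinase gene kin-19 (0.01 and 0.05) and the X-linked paralog of myrf-1, myrf-2 (0.80 and 0.74), did not pass in the authors' deposited tables.

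The 34 moulting effectors and enzymes include secreted matrix proteins, proteases, patched-related proteins and gap junction subunits. Of these 3 fell and 5 rose after TOP-2/DPY-27 depletion (median -0.57) in the authors' deposited table, near the shares of all genes (7.47% and 14.1%). After TOP-1/DPY-27 depletion 16 fell and 4 rose (median -0.90), beside 12.8% and 17.1% of all genes. The lowest p-values were those of ptr-18, a patched-related gene (-2.96 ± 0.33 after TOP-1/DPY-27 depletion, adjusted p 6.02e-17), mlt-11, which encodes a protein with protease inhibitor domains (-4.13 ± 0.52, adjusted p 5.90e-14), inx-13, an innexin (-1.67 ± 0.30, adjusted p 3.88e-07), and sec-23, of the secretory coat (-1.87 ± 0.34, adjusted p 6.60e-07), in the authors' deposited table. Of these inx-13 also fell after TOP-2/DPY-27 depletion (-1.40 ± 0.37, adjusted p 0.00141, in the authors' deposited table). acn-1 (-0.55 and -1.04) and ptr-4 (-0.29 and -0.82) did not pass in the authors' deposited tables. limma-voom called 10 of 30 effectors lower after TOP-1/DPY-27 depletion, where it called 15.6% of all genes lower. With a library left out their median there ran from -1.27 (without control B) to -0.82 (without control A).

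Of 20 oscillating collagens and precuticle genes, 1 fell after TOP-2/DPY-27 depletion (median -1.17) and 16 after TOP-1/DPY-27 depletion (median -1.48), and none rose, in the authors' deposited tables. The gene that fell in both was cut-6, which encodes a cuticlin (-2.14 ± 0.51, adjusted p 0.000309, and -2.20 ± 0.49, adjusted p 8.28e-05, in the authors' deposited tables). The collagens sqt-1 (-2.27 ± 0.33, adjusted p 2.77e-10), dpy-7 (-1.85 ± 0.46, adjusted p 0.000454) and sqt-3 (-1.47 ± 0.36, adjusted p 0.000408) fell after TOP-1/DPY-27 depletion in the authors' deposited table. Of these dpy-7 missed the threshold in limma-voom (adjusted p 0.0737), while sqt-1 and sqt-3 had no recovered reads. cut-2 (0.29 and -0.49) and sym-1 (0.32 and -0.36) did not pass in the authors' deposited tables. Of the 16 with a mean of at least 100, 5 have no recovered reads, and the other 11 were all higher in control A than in B, by a median of 1.65 on the log2 scale, where 53.1% of genes of that level were. The same 11 were lower in TOP-2 depletion library A than in B, at a median log2 ratio of A to B of -1.71, and the median ratio was -1.40 in the TOP-1/DPY-27 depletion. limma-voom called 3 of 14 lower after TOP-1/DPY-27 depletion, where it called 15.6% of all genes lower. With a library left out their median there ran from -2.38 (without TOP-1 depletion library B) to -1.01 (without control A).

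Markers of the hypodermis, the tissue in which many of the regulators act, gave 2 of 9 lower after TOP-2/DPY-27 depletion (median -0.27) and 5 of 9 after TOP-1/DPY-27 depletion (median -1.37) in the authors' deposited tables. For the 7 with recovered reads limma-voom called 2 lower in each comparison, at medians of -0.32 and -0.28. Without control A the medians of these markers were -0.038 and 0.00064, and without control B -0.60 and -0.56. Without TOP-2 depletion library B the median after TOP-2/DPY-27 depletion was 0.072. Those that fell in both of the authors' deposited tables were lin-26, a zinc finger gene of epidermal fate (-1.01 ± 0.31, adjusted p 0.00881, and -1.57 ± 0.32, adjusted p 9.60e-06), and che-14, of apical secretion (-1.80 ± 0.45, adjusted p 0.000722, and -3.12 ± 0.38, adjusted p 2.04e-14). vab-10, which encodes a spectraplakin, fell after TOP-1/DPY-27 depletion (-1.37 ± 0.32, adjusted p 0.000131, in the authors' deposited table). The junction genes ajm-1 (0.45 and 0.56) and dlg-1 (0.39 and 0.54), both on the X, did not pass in the authors' deposited tables. dpy-7 and sqt-3 are counted in this list and in that of the collagens. The 7 recovered markers summed to 24154 and 16673 normalized counts in the control, 22212 and 19058 after TOP-2/DPY-27 depletion and 22800 and 20836 after TOP-1/DPY-27 depletion, so that the groups overlapped in the sum. That sum was dominated by the X-linked ajm-1 and dlg-1, which made up 60.0% of it in control A and 84.2% in TOP-1 depletion library A. A split made after the values were seen left out these 2, whose log2 fold changes lay above 0. The 5 other recovered markers summed to 9667 and 6491 in the control, 4102 and 4670 after TOP-2/DPY-27 depletion and 3593 and 4017 after TOP-1/DPY-27 depletion. Every depletion library lay below both controls in that sum, but for elt-1 and elt-3 taken singly the groups overlapped. The collagen dpy-7 gave 3943 of the 9667. The 8 regulators summed to 34447 and 17602, 9682 and 17150, and 7958 and 9361 in the same order of groups. The part of the hypodermis in the values of the regulators was not tested.

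**Figure D5:**
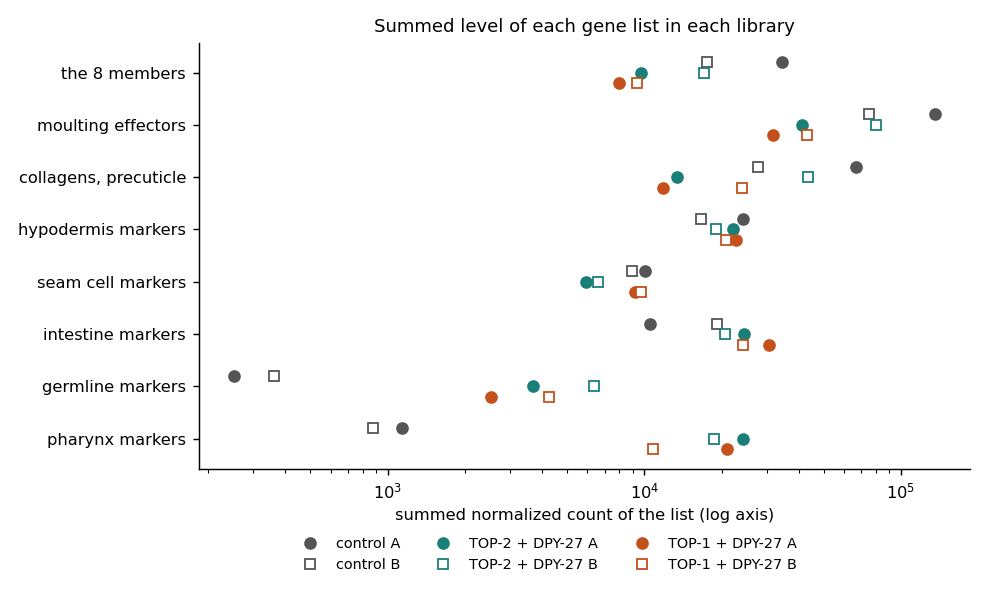
Summed normalized count of the recovered genes of each list (x axis, log scale) in each library, circles for library A and squares for library B. The 8 regulators, the moulting effectors and the collagens are highest in control A and lowest in TOP-1 depletion library A, the sum of the hypodermis markers, most of it from ajm-1 and dlg-1 on the X, overlaps between groups, and the germline and pharynx markers are lowest in the control libraries.

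Of the other markers, those of seam cells, the stem-like cells of the epidermis, gave 0 of 9 called after TOP-2/DPY-27 depletion and 2 lower and 1 higher after TOP-1/DPY-27 depletion, by the authors' deposited tables. Pharynx markers were higher in 9 of 10 in both (medians 5.21 and 4.99), and germline markers in 11 of 11 and 10 of 11 (medians 4.36 and 3.66). Intestine markers were higher in 1 and 2 of 9, body wall muscle markers in 2 and 2 of 9, and neuron markers lower in 1 and 4 and higher in 1 and 1 of 10. Intestine markers summed to 10547 in control A and 19116 in control B, the opposite order to that of the regulators. The part of these tissues in the values of the regulators was not tested.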

How the data were processed

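Per the labels' protocols, oligo(dT)-purified RNA gave strand-marked (dUTP) libraries, and 4 samples in 2 groups were compared with CA1200, whose libraries are not among those samples. The authors deposited 2 tables with no value per sample. Mean normalized counts are a signal averaged over 4 libraries by the authors, and log2 fold changes and their SEs were deposited with them. The score is the Wald statistic deposited by the authors, and p-values and adjusted p-values are likewise those deposited by the authors. The submitters' processing notes name DESeq2 1.30.0, whose column names the deposited tables carry, and HISAT2 2.2.1, CASAVA 1.8, Cufflinks 2.2.1 and HTSeq 0.13.5 with no role. No coordinates or sequences are printed, because the sources used here do not give the genome build. They also do not give the use of strand or the treatment of reads matching several genes.

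Each deposited mean is a sum of whole reads times 1 unit per library. The units were read from genes with 2 reads in all, and the log2 fold change told the groups apart. Reads were recovered for 16398 of 16398 genes in both tables with a mean of at most 12000, and for 15446 genes that each table fixed alone the control reads were equal in both. For lin-42 and myrf-1 only both tables together fixed the reads. Control levels in both tables matched for 2 control libraries (interquartile range of their log2 ratio 0.00499, with 0.0963 for 1 and 0.0526 for 3). Recomputed log2 fold changes differed from the deposited ones by a median of 0.000895 and 0.000875. Reads were tested with limma-voom (limma 3.58.1, R 4.3.3) over 13099 genes whose mean was 10 or more, with 3 residual degrees of freedom. Its code was run on simulated data with the same setting of spread for all genes and libraries. That does not check the test at the unequal spread of these data. The limma-voom test and the fits without a library were added after the data were seen. Intervals are 95% Wald intervals. Counts cover reads and not molecules. Of the gene names 98.13% matched Ensembl release 115 (WBcel235), used for symbols and exon length with Python 3.11.15.

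The 8 genes and all lists were chosen with earlier results of these data known. All 8 are named, and of each list of moulting genes and of hypodermis markers at most 4 genes that passed in either table, by smallest p, and at most 2 that did not, by highest mean. ceh-22, him-3 and nos-2 were named after their values were seen, because a control library held none of their reads. npr-14 and dur-1 were named because they overlap a member. elt-1, elt-3 and pha-4 were named after their values were seen, because they did not share the shift of their summed lists. Benjamini-Hochberg adjustment was used throughout.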

Additional observations from a re-analysis of the deposited data

How the results depend on the processing

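The members called after TOP-2/DPY-27 depletion (1, blmp-1) and after TOP-1/DPY-27 depletion (6) stayed within 1.5 times those counts under other adjustments, centrings, a stricter threshold and limma-voom (1, and 4 to 6). Leaving out 1 library gave 0 to 3 and 2 to 6. The lowest counts came without control A (0 and 2), without TOP-2 depletion library A (0) and without either TOP-1 depletion library (2 each), and the count of 3 came without TOP-2 depletion library B. Every fit without a library leaves a group with 1 library and has fewer libraries to test with. A lower count there can therefore come without smaller falls, and these counts do not measure the falls. The median of the 8 ran from -1.36 (without control B) to -0.35 (without TOP-2 depletion library A) and from -1.93 (without control B) to -1.21 (without control A). The difference between the depletions called 0 members except with a share of 0.5 of each variance left out (1, bed-3, where 2.31% of all genes passed). Summed over both comparisons, the related lists had 52 calls in 43 genes in the authors' tables, 42 of them in genes limma-voom could test, and limma-voom made 27 calls in 20 genes. Above 0 in place of below 0 were nhr-25 after TOP-2/DPY-27 depletion centred on autosomes (0.084), where leaving out a library gave -0.21 to 0.080 (without control A), and myrf-1 without control A (-1.18 to 0.027 with a library left out). Centring on the gene's own class turned ajm-1 (-0.094 and -0.12), dlg-1 (-0.15 and -0.14), sym-1 after TOP-2 (-0.22) and lin-14 after TOP-1 depletion (-0.22), and limma-voom turned kin-19 (-0.017). The call of nhr-23 after TOP-1/DPY-27 depletion was also lost when centred on autosomes (adjusted p 0.0832) or on its own class (adjusted p 0.0895). The causes were not tested. No paired analysis was possible because the recovered libraries carry no replicate number. With 2 libraries a group, the median SE of the 8 regulators was 0.47 and 0.39 on the log2 scale.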
